A study of Homo sapiens with 6 samples.

Results

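The WNT ligand genes WNT2, WNT5A and WNT5B, the genes of the secreted antagonists SFRP1, SFRP2, DKK1, DKK2 and DKK3, and the pathway genes AXIN2 and LEF1 were examined after depletion of the zinc finger gene ZNF469. These 10 genes were taken by symbol from a gene table of 23754 features. The study used IMR-90 cells, a line of human lung fibroblasts, transduced with a lentiviral Tet-pLKO-puro vector and selected with puromycin. The vector expresses a hairpin against ZNF469 when doxycycline (DOX) is present. Poly(A) RNA was sequenced as paired reads of 150 bp from 3 control libraries without induction (DOX–) and from 3 libraries of cells given 2 µg/mL doxycycline for 4 days (DOX+). The labels call the controls wild-type, whereas the methods describe the same hairpin-carrying cells without induction. Only the hairpin called sh-2 was sequenced, in cells of 1 line selected as a transduced population. DOX+ cells differed from DOX– cells in both doxycycline and the hairpin, and the effects of the drug and of the depletion cannot be told apart here. The labels do not say whether the 3 libraries of a group came from separate cultures, so the p-values measure the spread between these libraries, which may be technical.

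The libraries held 34057675 to 36120260 counts each. ZNF469 itself was at 118, 112 and 126 CPM (counts scaled to the library size adjusted by TMM, trimmed mean of M-values) in the DOX– libraries and at 80.4, 80.4 and 79.6 CPM in the DOX+ libraries, so that 67.5% of its level remained (adjusted p = 3.31e-05). DOX+ replicate 2 stood apart from the other libraries on the first principal component, which carried 23.9% of the variance. The 7 fibroblast markers checked were all present, and their summed level was 35884 to 36989.6 CPM in DOX– and 26736 to 27633 CPM in DOX+. Of these markers COL1A1, COL1A2 and DCN fell, and the other 4 did not pass the test. Epithelial markers summed to at most 0.472 CPM and endothelial markers to at most 0.856 CPM, with SFTPC, NKX2-1, KRT5, PECAM1 and CDH5 at 0. Of the leukocyte markers LYZ was at 0, PTPRC reached at most 0.169 CPM and CD68 lay between 58.8 and 66.7 CPM. Of the smooth muscle markers ACTG2 lay between 537 and 587 CPM, MYH11 between 1.85 and 3.76 CPM and DES at or under 0.569 CPM. The part of these markers in the results below was not tested.

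WNT proteins are secreted, lipid-modified ligands that bind Frizzled receptors. In the canonical branch, binding to a Frizzled and an LRP co-receptor stops the destruction of β-catenin, which then enters the nucleus and joins TCF/LEF factors at target genes, AXIN2 among them. Other branches, for which WNT5A is a typical ligand, act without β-catenin on cell shape, polarity and movement. SFRP proteins bind WNT ligands outside the cell, DKK1 and DKK2 bind the LRP co-receptors, and DKK3 is a divergent member of the DKK family. WNT signaling is known for its roles in lung development and in fibroblasts of the fibrotic lung.

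Levels between genes were compared on the deposited FPKM scale (fragments scaled to transcript length and to library size). In DOX– cells the order was DKK3 at 745 ± 8.08 FPKM (SD, n = 3), SFRP1 at 138 ± 3.13 FPKM, DKK1 at 91.8 ± 1.56 FPKM, WNT5B at 71.1 ± 6.46 FPKM, WNT5A at 62.5 ± 1.76 FPKM and AXIN2 at 0.306 ± 0.133 FPKM. WNT5B and WNT5A were the only neighbours among these whose DOX– libraries overlapped, from 63.9 to 76.5 FPKM for WNT5B and from 60.6 to 64.1 FPKM for WNT5A. DKK3 ranked 55 of the 13991 features tested by DOX– FPKM, and AXIN2 ranked 12846. WNT2, LEF1, SFRP2 and DKK2 had at most 12 counts in any library and were left out of the test by the filter on low counts.

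**Figure D1:**
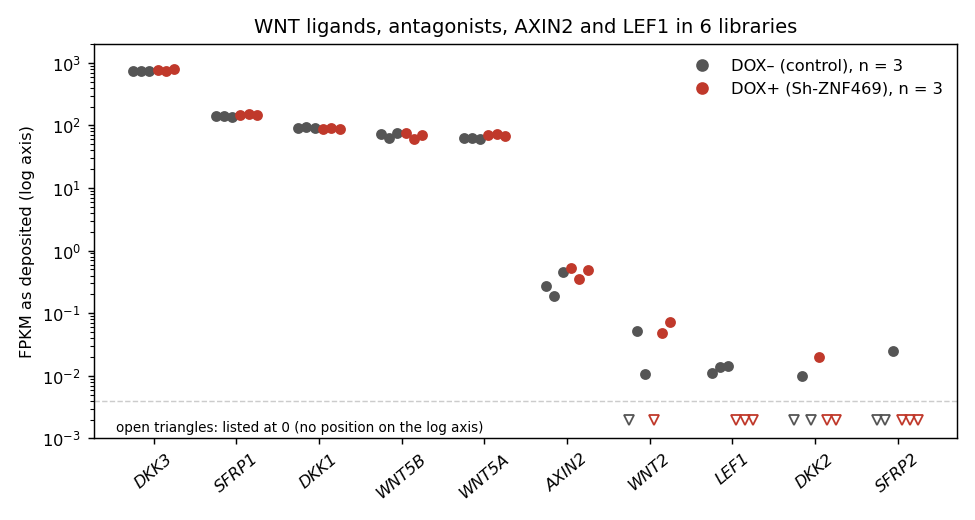
Deposited FPKM of the 10 genes on a log axis, with a point for each of the 3 DOX– and 3 DOX+ libraries. The 5 abundant genes lie between 60.6 and 791 FPKM, AXIN2 lies under 1 FPKM, and the 4 genes that were not tested lie lower still or at 0.

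Of the 10 genes, 6 were tested for a difference between DOX+ and DOX– libraries, with the p-value adjusted over all features. WNT5A rose, and no other member passed an adjusted p of 0.05. Over all features tested, 1.12% passed in either direction and 0.400% passed as higher in DOX+. At an unadjusted p under 0.05 there were 2 members, WNT5A and SFRP1, against 15.0% of all features. The log2 fold change was above 0 for 4 of the 6 and below 0 for 2, with a median of 0.04 beside -0.0019 over all features. The CPM values of the groups did not overlap for 3 of the 6 genes, WNT5A, SFRP1 and DKK1, against 20.3% of all features.

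**Figure D2:**
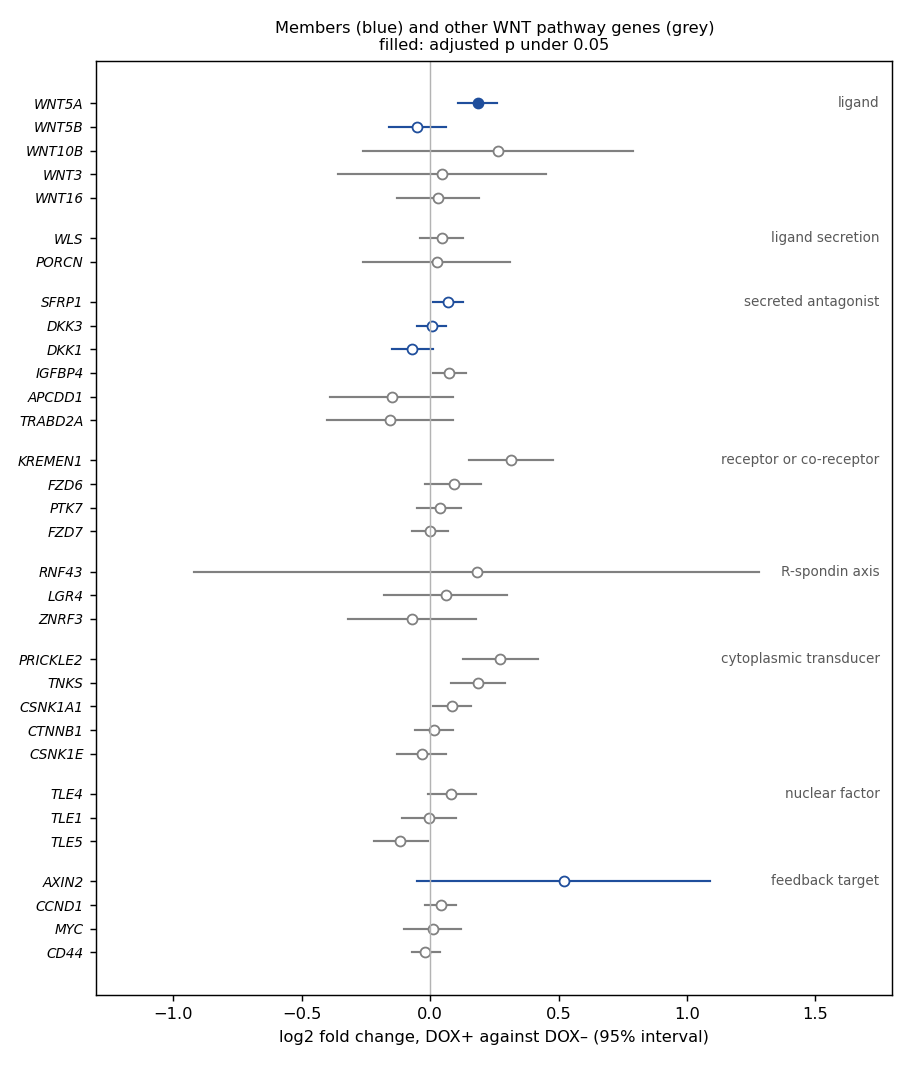
Log2 fold change of DOX+ over DOX– libraries with its 95% interval for the tested members and for the named genes of the rest of the pathway, grouped by role. WNT5A lies above 0 with an interval from 0.11 to 0.26, and the interval of AXIN2, from -0.05 to 1.09, is the widest among the members.

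Among the ligands, WNT5A was higher in every DOX+ library than in any DOX– library. The gene (ENSG00000114251) lies on the minus strand of chromosome 3 from 55465715 to 55490539 in GRCh38, with 5 exons in its canonical transcript. It had 11897, 12181 and 11659 counts in the DOX– libraries and 13829, 14387 and 13755 counts in the DOX+ libraries. On the CPM scale these were 351, 346 and 334 in DOX– and 388, 406 and 379.8 in DOX+. The lowest DOX+ library therefore lay above the highest DOX– library, and the means were 344 ± 8.74 and 391 ± 13.4 CPM (SD, n = 3 each). The log2 fold change was 0.19 (SE 0.0359, adjusted p = 0.0263), which put the DOX+ level at 114% of the DOX– level (95% interval 108% to 120%). The exact two-sided permutation test of the CPM values gave p = 0.1, the smallest that 3 libraries against 3 can give. On the FPKM scale WNT5A was at 64.1, 62.7 and 60.6 in DOX– and at 70.7, 73.9 and 68.9 in DOX+. RNA from whole cultures cannot tell more cells of a kind from more RNA per cell.

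The size of the WNT5A difference moved little between settings, from 0.16 to 0.21 on the log2 scale over 16 alternatives, whereas its call did not hold in all of them. It was called by DESeq2 (adjusted p = 1.71e-05, where 5.62% of the features with an adjusted p were called) and by limma-voom (adjusted p = 0.0202, 1.10% called). It was not called by limma-trend on the deposited FPKM values (adjusted p = 0.143, 0.214% called). When 1 library was left out, the call was kept in 1 of 6 fits, the one without DOX+ replicate 3 (adjusted p = 0.0268). The adjusted p was 0.0793 without DOX– replicate 1, 0.0759 without DOX– replicate 2 and 0.131 without DOX– replicate 3. It was 0.126 without DOX+ replicate 1 and 0.0628 without DOX+ replicate 2, the library that stood apart. Each of these fits had fewer libraries than the full comparison. The share of all features that they called is not given, so a loss particular to WNT5A cannot be told from a general one.

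**Figure D3:**
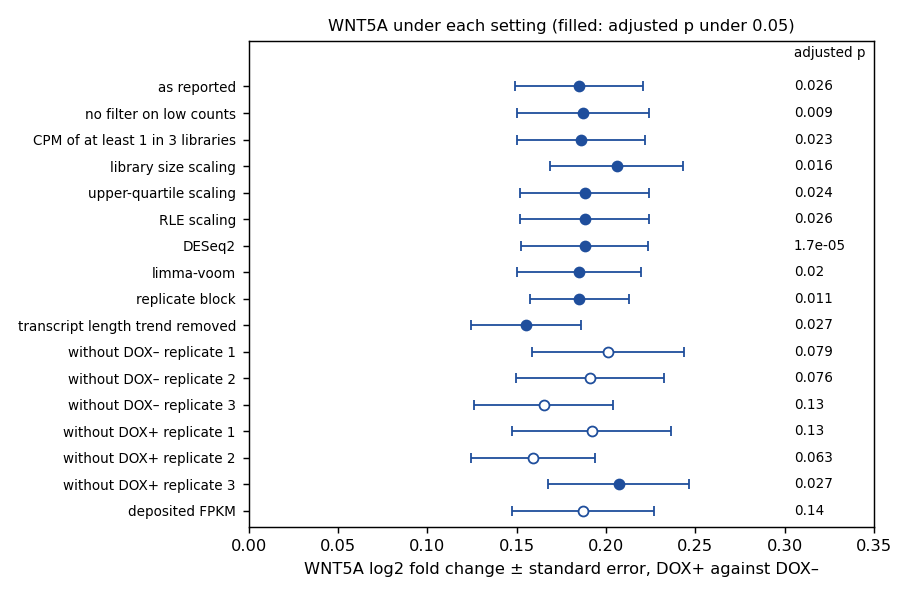
Log2 fold change of WNT5A with its standard error as reported and under each alternative. All estimates lie between 0.16 and 0.21, and the filled and open markers separate the settings with an adjusted p under 0.05 from the others.

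WNT5B, the close relative of WNT5A, did not pass the test. It (ENSG00000111186) lies on the plus strand of chromosome 12 from 1529891 to 1647212. Its libraries were at 127, 131 and 137 CPM in DOX– and at 131, 117 and 133 CPM in DOX+. The groups overlapped, with DOX+ replicate 2 the lowest of all 6. The log2 fold change was -0.05 (SE 0.0511, adjusted p = 0.678), and its 95% interval ran from 89.3% to 104% of the DOX– level. Without DOX+ replicate 2 the log2 fold change was 0.004, with library size scaling it was -0.032 and with the transcript length trend removed it was -0.027. The ratio of WNT5A to WNT5B in CPM was 2.76, 2.65 and 2.45 in DOX– and 2.95, 3.47 and 2.86 in DOX+. In FPKM, which divides by transcript length, the ratio was 0.88, 0.981 and 0.792 in DOX– and 0.939, 1.2 and 0.966 in DOX+. The ratios of the groups did not overlap in CPM and did so in FPKM.

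WNT2, the third ligand, was close to the detection limit. It (ENSG00000105989, chromosome 7 from 117275451 to 117323152) had 0, 9 and 2 counts in DOX– and 0, 8 and 12 counts in DOX+. Both groups held a library at 0, and their sums were 11 and 20 counts. A floor of 3 counts equals 0.0828 to 0.0886 CPM in these libraries, and no difference in WNT2 was detectable at this depth (edgeR without the filter, adjusted p = 0.821).

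Sequence before an annotated transcription start is shown for WNT5A, WNT5B and DKK1. WNT5A is the member that rose, WNT5B its relative with no detected difference, and DKK1 the member with the tightest DOX+ libraries. RefSeq start sites on GRCh38.p14 gave 8 windows of 250 bases for 6 of the 10 genes. WNT5A and WNT5B have 2 windows each, of which the one that shares no base with an exon is printed. All windows of WNT5A and WNT5B lie inside the GENCODE span of their gene, before internal starts. The DKK1 window, by contrast, ends where its gene begins. Which start sites these cells use was not tested. The letters searched were CTTTGA, the core of the TCF/LEF motif, and TATAAA, the TATA box, on both strands, so that TCAAAG and TTTATA count as matches. Of 35116 windows of the same length, 11.2% held the TCF/LEF core and 10.7% held the TATA letters. Capitals mark the matches, and each sequence reads 5′ to 3′ on the strand of its gene. The windows are chr3:55481399-55481648 (minus strand) for WNT5A, chr12:1628981-1629230 (plus strand) for WNT5B and chr10:52314031-52314280 (plus strand) for DKK1.
WNT5A: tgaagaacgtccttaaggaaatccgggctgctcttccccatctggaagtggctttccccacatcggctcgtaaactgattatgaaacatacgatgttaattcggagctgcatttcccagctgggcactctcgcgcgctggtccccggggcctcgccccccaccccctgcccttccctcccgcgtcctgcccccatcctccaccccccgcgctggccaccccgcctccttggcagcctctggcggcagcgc
WNT5B: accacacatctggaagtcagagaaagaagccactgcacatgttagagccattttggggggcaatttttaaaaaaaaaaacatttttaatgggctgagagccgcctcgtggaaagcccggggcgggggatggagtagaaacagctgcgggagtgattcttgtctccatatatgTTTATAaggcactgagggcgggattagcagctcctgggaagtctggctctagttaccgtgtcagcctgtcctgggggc
DKK1: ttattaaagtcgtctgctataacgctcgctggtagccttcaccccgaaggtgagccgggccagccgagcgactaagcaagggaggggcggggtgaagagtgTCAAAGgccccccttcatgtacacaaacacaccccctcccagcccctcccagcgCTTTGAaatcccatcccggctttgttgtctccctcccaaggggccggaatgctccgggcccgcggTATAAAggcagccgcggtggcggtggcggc
The DKK1 window held TCF/LEF letters 149 and 95 bases before the start, the first on the opposite strand, and TATAAA 30 bases before it. The WNT5B window held the TATA letters on the opposite strand 78 bases before the start, and the WNT5A window held neither motif. The windows of the other start sites of WNT5A and WNT5B, which overlap exons, held neither motif. Of the 8 windows, that of DKK1 alone held the TCF/LEF letters. A match is a run of letters and not a measured binding site. AXIN2, DKK2, DKK3 and SFRP1 had no entry.

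**Figure D4:**
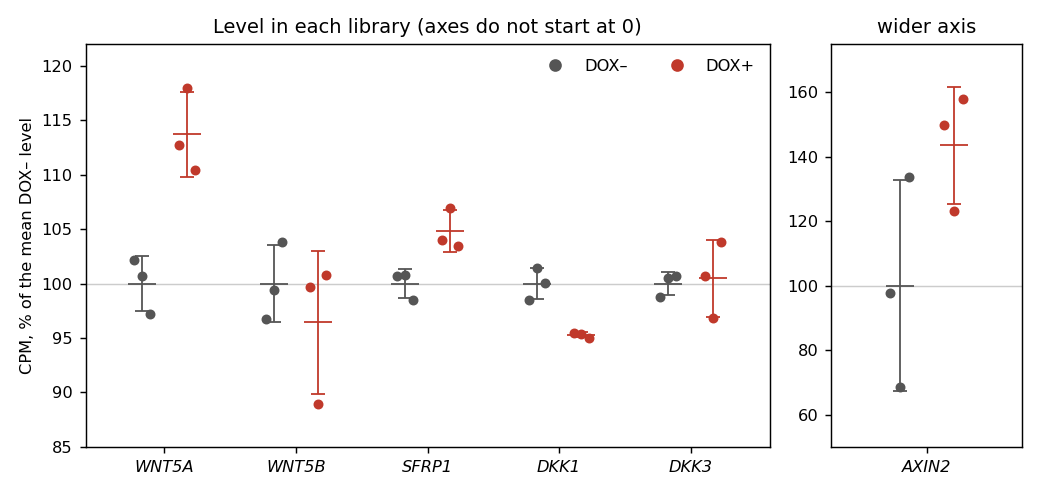
CPM of each tested member in each library as a percentage of its DOX– mean. The DOX+ libraries of WNT5A lie at 110.4% to 118%, those of DKK1 at or under 95.5%, and those of AXIN2 spread from 123% to 158%.

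Among the secreted antagonists no gene passed the adjusted threshold. DKK1 (ENSG00000107984), which blocks the LRP co-receptors and whose promoter window is printed above, lies on the plus strand of chromosome 10 from 52314281 to 52318042. It was at 180.0, 185 and 183 CPM in DOX– and at 174, 174 and 174 CPM in DOX+. All DOX+ libraries lay below all DOX– libraries in CPM, with means of 183 ± 2.67 and 174 ± 0.412 CPM (SD, n = 3 each). DKK1 had a log2 fold change of -0.07 (SE 0.0351, 95% interval -0.15 to 0.01, adjusted p = 0.378), and the DOX+ level was 95.3% of the DOX– level. This fold change was -0.035 on the log2 scale with the transcript length trend removed and -0.033 on the deposited FPKM values. On the FPKM scale the DKK1 groups overlapped, at 91.1, 93.6 and 90.7 in DOX– and 89.1, 90.7 and 89.3 in DOX+.

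DKK3 was the most abundant member and gave 0.211% to 0.224% of all counts of a library. Its gene (ENSG00000050165) lies on the minus strand of chromosome 11 from 11956207 to 12009769. It was at 2126, 2164 and 2168 CPM in DOX– and at 2168, 2085 and 2236 CPM in DOX+. The DOX+ libraries held both the lowest and the highest value. DKK3 had a log2 fold change of 0.01 (SE 0.0259, adjusted p = 0.933), and its 95% interval ran from 96.6% to 104% of the DOX– level. DKK3 shares 5681 of its 11958 exonic bases with USP47 on the opposite strand, which had 4926 to 5573 counts. The 11958 bases are those of all annotated DKK3 exons together. The canonical transcript has 2525 bases, and the deposited counts and FPKM imply 2829 to 2894. How much of that transcript overlaps USP47 was not measured. The kit is not stated to mark strand, so reads from these shared bases cannot be assigned to either gene with certainty.

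SFRP1, which binds WNT ligands directly, was higher in each DOX+ library than in any DOX– library, by a small amount. The gene (ENSG00000104332) lies on the minus strand of chromosome 8 from 41261962 to 41309473. Its levels were 693, 693 and 677 CPM in DOX– and 715, 736 and 711 CPM in DOX+. SFRP1 had a log2 fold change of 0.07 (SE 0.028, adjusted p = 0.278), and the DOX+ level was 105% of the DOX– level (95% interval 101% to 109%). On the deposited FPKM values the SFRP1 log2 fold change was 0.104 (adjusted p = 0.294 by limma-trend). The exact two-sided permutation test gave p = 0.1 for SFRP1 and for DKK1. SFRP2 (ENSG00000145423) had 2 counts in DOX– replicate 3 and 0 in the other 5 libraries. DKK2 (ENSG00000155011) had 2 counts in DOX– replicate 2, 3 counts in DOX+ replicate 1 and 0 elsewhere. SFRP2 and DKK2, both on chromosome 4, were thus at or under the floor of 3 counts in every library, and no fold is given for them.

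The summed levels of ligands and antagonists were set side by side in each library. The 3 ligands summed to 137, 127 and 137 FPKM in DOX– and to 146, 136 and 140.2 FPKM in DOX+. The 5 antagonists summed to 972, 987 and 965 FPKM in DOX– and to 998, 989 and 1027 FPKM in DOX+. DKK3 made up 75.4% to 77.1% of the antagonist sum. The ratio of antagonist to ligand FPKM was 7.1, 7.79 and 7.03 in DOX– and 6.83, 7.3 and 7.32 in DOX+, and the groups overlapped. Without DKK3 the ratio was 1.69, 1.84 and 1.64 in DOX– and 1.61, 1.8 and 1.68 in DOX+, again with overlap.

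AXIN2, a feedback target of canonical signaling that helps to destroy β-catenin, was low and variable. The gene (ENSG00000168646) lies on the minus strand of chromosome 17 from 65528563 to 65561648. It had 44, 32 and 62 counts in DOX– and 71, 58 and 76 counts in DOX+, or 1.3, 0.91 and 1.78 CPM against 1.99, 1.64 and 2.1 CPM. DOX– replicate 3 lay above DOX+ replicate 2, so the groups overlapped. AXIN2 had a log2 fold change of 0.52 (SE 0.264, adjusted p = 0.381), and the interval ran from 96.6% to 213% of the DOX– level. Without DOX– replicate 2 the log2 fold change was 0.31, and without DOX– replicate 3 it was 0.79. LEF1 (ENSG00000138795, chromosome 4 from 108047545 to 108168956), a nuclear partner of β-catenin, had 2 counts in each DOX– library and 0 in each DOX+ library. These counts are under the floor, and no fold is given (edgeR without the filter, adjusted p = 0.547).

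A further 110 genes of the pathway were listed by role, and 77 of them passed the filter on low counts. None passed an adjusted p of 0.05 in edgeR, the smallest being 0.0739, while 15 had an unadjusted p under 0.05, 10 higher and 5 lower in DOX+. These 15 are 19.5% of the genes tested, against 15.0% of all features. DESeq2 called 5, KREMEN1, APC, FZD2, TNKS and PRICKLE2, and limma-voom called 0. In DESeq2 24 of the 77 genes had no adjusted p, and 5.62% of all features with one were called. APC and FZD2 were named after their values were seen. The groups of 19 genes (24.7%) did not overlap, against 20.3% of all features.

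Of the other 16 ligands, 5 were tested and none had an unadjusted p under 0.05. WNT16 led them at a mean of 5.76 FPKM, well under WNT5A and WNT5B, with a log2 fold change of 0.03. WNT3 had a log2 fold change of 0.04 and WNT10B of 0.27 (SE 0.241), both at a mean under 1 FPKM. WLS, which carries lipidated WNT proteins to the cell surface, was at a mean of 45.1 FPKM with a log2 fold change of 0.05 (SE 0.04), and PORCN, the enzyme that attaches the lipid, had a log2 fold change of 0.03. Of 14 other antagonists 4 were tested, IGFBP4 being the most abundant at a mean of 552 FPKM with a log2 fold change of 0.07 (adjusted p = 0.252). TRABD2A, a protease that inactivates WNT proteins, had a log2 fold change of -0.16 and APCDD1, an inhibitor at the membrane, of -0.15, and neither passed the test. No library had more than 11 counts of RSPO1, RSPO2, RSPO3 or RSPO4, the R-spondins that amplify WNT signals, which were named after their values were seen. Their receptor LGR4 was at 9.95 to 13 CPM. ZNRF3 and RNF43, ligases that remove Frizzled receptors, had log2 fold changes of -0.07 (SE 0.117) and 0.18 (SE 0.508).

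Among 23 receptors and co-receptors, 21 were tested. FZD7 was the most abundant Frizzled at a mean of 66.1 FPKM, with a log2 fold change of -0.00 (SE 0.034). PTK7 and FZD6, the next by FPKM among the named receptors, had log2 fold changes of 0.04 and 0.09. KREMEN1, a receptor that acts with DKK1 to remove LRP from the surface, was at 14.6, 14.7 and 14.7 CPM in DOX– and at 18.9, 19 and 16.8 CPM in DOX+. Its groups did not overlap, and its log2 fold change of 0.32 (SE 0.0771) missed the threshold in edgeR (adjusted p = 0.0739) and passed it in DESeq2 (adjusted p = 0.0224). FZD2 was at 94.9, 91.3 and 97.2 CPM in DOX– and at 90.3, 78.1 and 81.3 CPM in DOX+, a log2 fold change of -0.18 (adjusted p = 0.135 by edgeR).

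The 21 cytoplasmic genes of the list were all tested, and 8 had an unadjusted p under 0.05, 5 higher and 3 lower. These are 38.1% of the role, against 15.0% of all features. The groups of 13 genes (61.9%) did not overlap, against 20.3% of all features. The features of this background were not matched to the role by count level. The other roles lay lower on the first measure, with 1 of 4 antagonists, 2 of 8 feedback targets, 14.3% of the receptors, 7.69% of the nuclear factors, and 0 of the ligands, the secretion genes and the R-spondin axis. Groups did not overlap for 25% of the target genes, 14.3% of the receptors, 7.69% of the nuclear factors and 0 genes of the remaining roles. The 3 lower cytoplasmic genes were DVL1 (log2 fold change -0.14, adjusted p = 0.202), DAAM1 (-0.30, adjusted p = 0.296) and APC2 (-0.39, adjusted p = 0.332). Of the higher ones, DAAM2 had a log2 fold change of 0.13 (adjusted p = 0.247), opposite in sign to DAAM1. DVL1, DAAM1, APC2 and DAAM2 were named after their values were seen. PRICKLE2, of the planar polarity branch, was at 16.2, 16.5 and 16.3 CPM in DOX– and at 20.1, 19.6 and 19.4 CPM in DOX+ (log2 fold change 0.27, adjusted p = 0.0779 by edgeR). TNKS, an enzyme that marks AXIN proteins for destruction, had a log2 fold change of 0.19 (adjusted p = 0.0828), and APC, a scaffold of the destruction complex, also had 0.19 (adjusted p = 0.12). CTNNB1, which encodes β-catenin, lay between 249.6 and 257 CPM in DOX– and between 253 and 257 CPM in DOX+, with overlap and a log2 fold change of 0.01 (SE 0.0333). The kinases CSNK1E and CSNK1A1 had log2 fold changes of -0.03 (adjusted p = 0.782) and 0.09 (adjusted p = 0.276). Of the 13 nuclear factors 1 had an unadjusted p under 0.05, TLE5, a small relative of the TLE corepressors, with a log2 fold change of -0.12 (adjusted p = 0.272). The corepressors TLE4 and TLE1 had log2 fold changes of 0.08 and -0.01. Among the 8 target genes tested, CCND1 had a log2 fold change of 0.04, MYC 0.01 and CD44 -0.02, and none of the 3 passed the test. An unadjusted p under 0.05 was found for 2 of the 8, both with groups that did not overlap. These were TCF4 (ENSG00000196628, not the TCF/LEF gene TCF7L2, log2 fold change 0.12, adjusted p = 0.221) and TNFRSF19 (log2 fold change 0.12, adjusted p = 0.286). The other 3 were CCN4 at -0.93 (SE 0.578), TWIST1 at -0.28 (SE 0.197) and BAMBI at -0.13 (SE 0.0796), and none passed the test. These 5 were named after their values were seen. The log2 fold change was above 0 for 4 of the 8 targets and below 0 for 4, with a median of -0.0048.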

How the data were processed

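Whole-number counts per gene and FPKM values were deposited by the authors, whose processing notes name GRCh38, HISAT2 and StringTie. Versions, annotation and counting step are not given in the sources used here. Groups came from the sample titles. The table held 23754 features after 17 stray lines were dropped, and 3780 of them are unannotated loci with 0.938% to 0.996% of the counts. Depth was 34057675 to 36120260 counts per library. CPM divides each count by the library's total over the tested features times its TMM factor. Counts were tested with edgeR 4.0.16 (R 4.3.3), using filterByExpr at a minimum count of 10, TMM factors and a quasi-likelihood fit on group alone, and p-values were adjusted by Benjamini-Hochberg over 13991 features. Standard errors were taken as log2 fold change over the root of F. Floors of 3 counts cover counting error only.

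Alternatives were other filters and scalings, DESeq2 1.42.0, limma-voom (limma 3.58.1), a replicate block, removal of a transcript length trend, leaving out each library, and, chosen after seeing the data, limma-trend on log2(FPKM + 0.1). Coordinates are from GENCODE 44, which the authors need not have used. The fit was tested on simulated data with 200 changed features, and it recovered 84% of them. Recovery was 94% at a log2 change of 1 and 74% at a log2 change of 0.5. No recovery is given for smaller changes, such as the log2 fold change of 0.19 for WNT5A. These shares therefore do not tell how often the fit would miss changes of that size. The false share was 7.69%, above the level set by the adjusted p threshold. The members and the pathway list were chosen with earlier results of these data known. Besides the members and ZNF469, the genes named were any pathway gene called, the 3 with the highest mean FPKM in each role and the 3 with the smallest p-value. Exceptions are stated.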

Additional observations from a re-analysis of the deposited data

How the results depend on the processing

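The comparison rests on 3 libraries against 3. Of the members, 1 was called in the reported fit and 0 with the deposited FPKM values, and 0 to 1 when a library was left out. Of all features, 1.12% were called in the reported fit and 0.214% with the FPKM values. No such share is given for the fits that left out a library. Of the other pathway genes, 0 were called in the reported fit and 5 by DESeq2, which gave no adjusted p for 24 of the 77 tested and called 5.62% of all features with one, against 1.12% in the reported fit. WNT5B changed sign when DOX+ replicate 2 was left out (range -0.084 to 0.004 over the fits without 1 library), and DKK3 changed sign without DOX– replicate 1 and without DOX+ replicate 3 (range -0.017 to 0.034), all of them far from the threshold. The cause was not tested. ZNF469 was called in all 16 alternatives, from -0.62 to -0.52. Library size scaling moved the median log2 fold change of all features to 0.019 and FPKM to 0.029. The labels do not say whether replicate numbers pair the samples. Deviations of same-numbered libraries correlated at -0.0241, -0.0352 and 0.0363. These values show no shared replicate effect but cannot tell whether cultures were paired. With the replicate block 1 member was called, WNT5A (0.19, adjusted p = 0.0115), and 0 other pathway genes. The share of all features called with the block is not given, so these counts have no background. AXIN2, at 32 to 76 counts, has no adjusted p from DESeq2, and WNT2, LEF1, SFRP2 and DKK2 are limited by depth.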

Other observations

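FPKM and counts did not order the libraries alike for every member. The transcript length that the deposited values imply, from counts and FPKM of the same library, was 1740, 2037 and 1764 bases for WNT5B in DOX– and 1750, 1923 and 1866 bases in DOX+. For AXIN2 it was 4684, 4754 and 3883 bases in DOX– and 3753, 4633 and 4219 bases in DOX+.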
